A study of Mus musculus with 8 samples.

Results

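In ribosome profiling, lysates are digested with nuclease and the short RNA pieces left inside ribosomes, called footprints, are sequenced, and mRNA sequencing of the same tissue measures how much of each transcript is there to be read. Set against each other, the footprint level and the mRNA level of a gene show how heavily its transcripts are occupied by ribosomes. The wild-type brain is described here by that ratio, with no knockout library in any comparison. The genes were chosen by a fixed rule on level. A protein-coding gene was included when its mean RPKM (reads per kilobase of gene per mega reads, made by the authors) reached 1 in the wild-type columns of both the footprint and the mRNA table. This gave 9473 genes out of 22046 protein-coding genes and 54532 genes of all classes in the count table. A further 2392 protein-coding genes reached an RPKM of 1 in mRNA and not in footprints, with a median mRNA RPKM of 1.98. Another 155 reached it in footprints alone. The 50 genes less than 0.02 above the footprint limit had a median mRNA RPKM of 3.01, and the 49 genes less than 0.02 below it had 2.66.

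The mice were males aged 3 months with the label WT for wild type, and the tissue was given as whole brain. They were littermates of mice without Nsun5 according to the protocol, which names 5 mice per genotype. There were 4 footprint libraries and 4 mRNA libraries, numbered 1 to 4 in each kind. The labels tie no library to an animal, and every p-value therefore rests on how far these libraries vary, part of which may be technical. The labels give the molecule as polyA RNA. Of the checked cell type markers, Snap25 (neurons) had a mean mRNA RPKM of 339, Slc1a2 (astrocytes) 165, Cnp (oligodendrocytes) 113, Csf1r (microglia) 17.1 and Cldn5 (endothelium) 24.9. Globin mRNA of blood was present, with Hba-a1 at 46.7 RPKM. Of the muscle genes checked, Acta1 was at 5.59, and Ckm and Myh4 were at 0.0293 and 0.0483. In bulk tissue, fewer cells of a type and less RNA per cell cannot be told apart, in either kind of library.

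Total gene counts ran from 1.20 to 3.49 M (mega counts) in footprints, of which 0.770 to 1.40 M fell on the 9473 genes. Totals in mRNA ran from 15.6 to 17.4 M, with 14.6 to 16.2 M on these genes. MicroRNAs, which are not translated, took 23.0% to 55.0% of the footprint counts and stayed outside the comparison. The median gene had a mean of 50.5 counts per footprint library and 766.5 per mRNA library, so footprint counts set the precision. A total of 414 of the 9473 genes had a mean footprint count under 10. Between footprint libraries the log2 levels correlated across genes at r = 0.90 to 0.92, between mRNA libraries at 0.98 to 0.99, and between a footprint and an mRNA library at 0.79 to 0.83. Genes are not independent replicates, and these values describe the libraries only.

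Each gene was given as CPM, counts scaled to a common library total, after TMM scaling over the 8 libraries. The log2 ratio is that of footprint CPM to mRNA CPM in the edgeR fit. A log2 ratio of 0 means that a gene took the same share of footprint counts as of mRNA counts, and a log2 ratio of 1 or −1 is a 2-fold difference. The ratio is relative to the other genes and says nothing of the amount of translation per cell. It is set by footprints over the coding region against mRNA reads over the whole transcript, and the coding share of each gene was not used here.

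Ribosome occupancy followed mRNA level over most of the range and departed from it widely in single genes. Mean log2 RPKM in footprints and in mRNA correlated at r = 0.83 (Spearman's rho = 0.80) across the 9473 genes. The log2 ratio had a median of 0.02 and an SD of 0.93 over genes, against a median standard error of 0.18 for a single gene. Its 5th percentile was −1.64 and its 95th percentile 1.29, a 7.65-fold span. At a Benjamini-Hochberg adjusted p under 0.05 (edgeR's quasi-likelihood test), 2675 genes, 28.2% of those tested, had higher footprint than mRNA levels and 2768, 29.2%, had lower ones. The counts called in each gene list below are to be read against these shares. Differences of at least 2-fold were called for 950 genes in the higher direction (10%) and 1289 in the lower direction (13.6%). In 2272 genes all 4 footprint libraries lay above all 4 mRNA libraries, and in 2498 genes all lay below. Of the 100 genes with the highest mean RPKM in footprints, 58 were also among the 100 highest in mRNA.

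**Figure D1:**
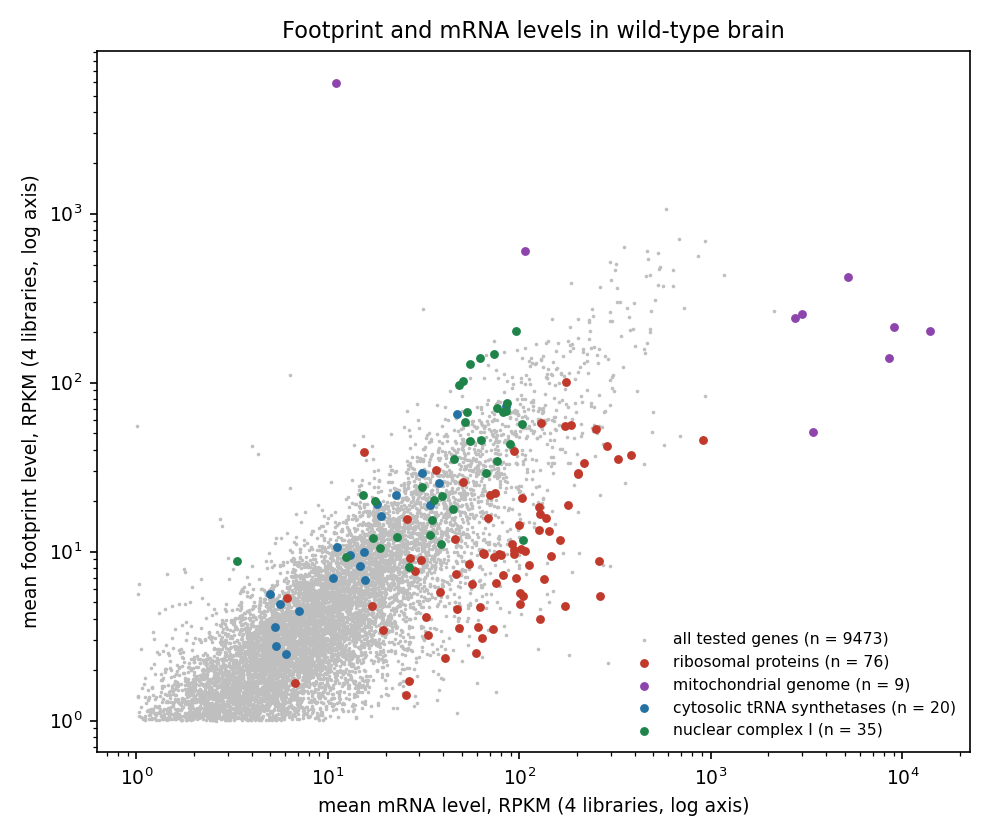
Mean footprint RPKM against mean mRNA RPKM of the 9473 genes in wild-type brain, both on log axes, 1 point per gene, with 4 gene groups in colour. Ribosomal protein genes lie below the cloud, most of the 9 mitochondrially encoded genes lie far to the right of it, and genes of nuclear complex I and of the tRNA synthetases lie in its middle and upper part.

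The genes with the most footprints were neuronal, glial and metabolic. App, the amyloid precursor protein, had 4281, 4461, 3984 and 3550 CPM in footprints against 1655, 1638, 1671 and 1666 CPM in mRNA. The groups did not overlap, and the log2 ratio was 1.30 ± 0.09 (SE). Also among the 10 genes with the most footprints were Mdh1, Slc1a2, Cpe, Gpm6a, Psap and Ttr. Like App, these 6 genes were called higher in footprints, with log2 ratios from 0.53 (Cpe) to 2.00 (Ttr). Since these genes were ranked on footprint level, a high ratio among them is partly a result of the ranking. By mRNA RPKM the 10 highest genes were 7 mitochondrially encoded genes, Fth1, Calm2 and Cst3. Of these only Cst3, a secreted protease inhibitor, was called higher, with a log2 ratio of 0.69, and Calm2 at −0.30 was not called.

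The translation machinery itself was split. Ribosomes are built from ribosomal RNA and many small proteins. The mRNAs for these proteins are known for a run of pyrimidines at their first bases, the terminal pyrimidine element, through which their translation is held back when growth signals are low. Of 76 ribosomal protein genes tested, 65 were called lower in footprints than in mRNA, 57 of them at least 2-fold, and 4 were called higher. The median log2 ratio was −1.93, against 0.02 for all tested genes. It was −1.93 in the large subunit (44 genes, 38 lower, 3 higher) and −1.92 in the small subunit (32 genes, 27 lower, 1 higher).

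Rplp1, a stalk protein of the large subunit, had 41.0, 56.4, 59.6 and 62.2 footprint CPM and 426.3, 470.9, 523.6 and 568.9 mRNA CPM. The groups lay far apart, and the log2 ratio was −3.16 ± 0.15 (SE). Rps23, a protein of the decoding centre, had 23.1, 2.86, 8.39 and 23.6 footprint CPM, a wide spread on few counts, and 221.4, 278.2, 245.6 and 223.6 mRNA CPM, with a log2 ratio of −4.18 ± 0.31. Rpl13 was at −3.88, Rps25 at −3.22 and Rpl41, the shortest ribosomal protein, at −1.63. Rpl36 was at −4.32, and at −5.52 without footprint library 3, which held most of its footprints. The 4 genes in the opposite direction included Rpl7a at 2.46 and Rack1, a ribosome-bound scaffold, at 0.86. Each of these has 3 small RNA genes within its span. Rpl7a also has a pseudogene of its name and an mRNA RPKM of 15.5, against a median of 81.3 in the large subunit. The part of this in their ratios was not tested. Rpl23a, with an mRNA RPKM of 96.8, and Rpl35, with 73.8, stayed below the footprint limit at 0.957 and 0.204 and were not tested.

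These ratios carry a limit of counting. Ribosomal protein genes have many near-identical processed copies, to which a short footprint can be matched as well as to the gene itself, and how such reads were counted is not given in the sources used here. Of the 76 genes, 57 have a pseudogene of their own name in the count table, with a median log2 ratio of −2.11. The 19 without one had a median of −1.10, with 13 called lower and 2 higher. In the small subunit the median moved from −1.92 to −0.62 among the 9 genes without a pseudogene of their name, and in the large subunit from −1.93 to −1.64 among 10. Copies under other names or descriptions were not looked for, so these genes may have copies too. All pseudogenes together took 0.135 ± 0.031 counts per 100 protein-coding counts in footprints and 0.489 ± 0.014 in mRNA (SD, n = 4 each). The part of this counting in the low ratios was not tested.

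The starts below show the terminal pyrimidine element where the annotation places it. They are the 6 ribosomal protein genes and the 3 other genes with the highest mRNA RPKM whose first annotated base is a C followed by at least 4 bases of C or T, taken from RefSeq (GRCm38.p6). Each has 15 bases before the start and 15 from it on, and the capitals mark the unbroken run of C and T from the first base of the transcript.
Fau: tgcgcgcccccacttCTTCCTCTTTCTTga
Rps21: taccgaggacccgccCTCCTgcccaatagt
Rps6: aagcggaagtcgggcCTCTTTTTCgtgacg
Rpl38: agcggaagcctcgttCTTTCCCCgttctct
Rpl14: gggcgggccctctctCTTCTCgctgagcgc
Rps27: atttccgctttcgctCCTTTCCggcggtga
Ldhb: cggccccgcctcctcCTCCTCCTTCTTgta
Prnp: ctcccgcctgccccgCCCCTTTCCactccc
Tuba1a: ctgtaagaagcaacaCCTCCTCCTCgcctc
The plus strand holds Fau (chr19:6057932-6057961), Rps21 (chr2:180257364-180257393), Rpl38 (chr11:114668565-114668594), Rpl14 (chr9:120571502-120571531) and Prnp (chr2:131909913-131909942). The minus strand holds Rps6 (chr4:86857353-86857382), Rps27 (chr3:90213634-90213663), Ldhb (chr6:142507943-142507972) and Tuba1a (chr15:98953487-98953516). The log2 ratio was −1.66 for Fau, −0.62 for Rps21, −2.11 for Rps6, −0.53 for Rpl38, −2.28 for Rpl14 and −2.45 for Rps27. Among the other genes with such a start it was 1.02 for Ldhb, a lactate dehydrogenase subunit, −0.38 for Prnp, the prion protein, and −5.91 for Tuba1a, an alpha tubulin.

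Of 7546 genes with a promoter entry, 56 were ribosomal protein genes, and 12 of these, 21.4%, had a C and 4 pyrimidines at the annotated start on the gene's strand, against 2.50% of the 32850 promoters in the RefSeq table. Their median log2 ratio was −1.89, and that of the 44 ribosomal protein genes without it was −2.01. Outside the ribosomal proteins, 166 genes with such a start had a median of 0.00 and 7324 without it 0.02. A looser search, for a run of 7 or more C or T within 20 bases on either side of the start, matched 57.1% of the ribosomal protein genes and 24.3% of all promoters. It gave medians of −1.78 with and −2.05 without the run inside the ribosomal proteins, and 0.05 and 0.01 outside them. Annotated starts can be some bases away from the ones used in brain, and a missing match says only that these letters are not in that window.

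Other terminal pyrimidine mRNAs, mostly elongation and initiation factors, were lower on balance, with 12 of 21 genes called lower and 2 called higher, and a median of −0.35. Eef1a1, which brings charged tRNAs to the ribosome, had 438.1, 477.3, 435.4 and 660.2 CPM in footprints against 2630, 2869, 2354 and 2336 CPM in mRNA, a log2 ratio of −2.34 ± 0.14 (SE) in a gene with near-identical copies. Eef1g was at −3.41 and Eef2, the translocase, at −0.35, while the initiation factor subunits Eif3k and Eif3l were at 1.35 and 0.93. Across 33 initiation factors, 10 were called higher and 12 lower, with a median of 0.04. They ran from Eif3g at 2.27 and Eif2b4 at 1.49 to Eif4g2 at −1.53 and Eif5 at −1.66. The cytosolic aminoacyl-tRNA synthetases, which load amino acids onto tRNAs, lay on the other side. Of 20 genes, 15 were called higher and 0 lower, with a median of 0.64. In this list, in the pumps and in the microglial genes described below, the number lower was also 0 at an unadjusted p under 0.05 in edgeR and 0 in DESeq2. Gars, the glycine enzyme, led with 563.7, 489.4, 475.7 and 418.5 CPM in footprints against 180.1, 159.0, 156.5 and 151.5 CPM in mRNA (log2 ratio 1.59 ± 0.12), and Tars at −0.18 and Kars at −0.08 were not called.

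The mitochondrial genome encodes 13 subunits of the respiratory chain, whose mRNAs are read by ribosomes inside the organelle. Of these genes, 9 passed the limits, 7 were called lower and 2 higher, and the median log2 ratio of the 9 was −2.49. mt-Co1, a catalytic subunit of cytochrome oxidase, had 887.8, 610.9, 681.3 and 811.6 footprint CPM and 26120, 26450, 21060 and 21090 mRNA CPM. Its log2 ratio was −4.99 ± 0.14 (SE), and its mean mRNA RPKM of 13960 was the highest of all genes tested. mt-Nd4 at −4.92, mt-Nd1 at −4.78 and mt-Cytb at −4.28 lay close to it. mt-Nd2, mt-Nd5 and mt-Nd6 lay less low, between −2.49 and −2.37.

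The mitochondrially encoded genes did not move as a block, but the counts of those called higher are uncertain, as given below. mt-Nd3 was higher in footprints, with 343.3, 383.0, 249.2 and 1038 CPM in footprints against 38.9, 48.4, 35.4 and 41.3 CPM in mRNA, a log2 ratio of 3.62 that became 2.99 without footprint library 4. mt-Atp8 had 1979, 1460, 2037 and 6292 footprint CPM and 1.33, 0.628, 4.49 and 3.44 mRNA CPM for a log2 ratio of 10.20, or 9.51 without footprint library 4. It shares bases with mt-Atp6, so reads over the overlap cannot be told apart, and mt-Nd4l overlaps mt-Nd4 likewise. The remaining 4 genes, mt-Co2, mt-Co3, mt-Atp6 and mt-Nd4l, had 0 footprint counts in all 4 libraries together, with mean mRNA CPM of 121.7, 88.2, 184.5 and 27.6. Taking 3 counts over the 4 libraries as the upper limit, mt-Atp6 was at least 278-fold lower in footprints than in mRNA, mt-Co2 at least 183-fold, mt-Co3 at least 133-fold and mt-Nd4l at least 41.5-fold. The nuclear genome of the mouse carries a near-identical copy of the stretch around mt-Co2, mt-Atp6 and mt-Co3. mt-Atp8, which overlaps mt-Atp6, lies within that stretch, and mt-Nd3 and mt-Nd4l lie close to it. Mean mRNA CPM was 2.47 for mt-Atp8 and 41.0 for mt-Nd3. The counts of mt-Co2, mt-Atp6, mt-Co3, mt-Atp8, mt-Nd3 and mt-Nd4l are uncertain for that reason, and so are the fold limits given above.

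The nuclear genes for the same respiratory chain lay on the opposite side from most mitochondrially encoded ones. In complex I, which passes electrons from NADH to ubiquinone, 21 of 35 nuclear genes were called higher and 2 lower, with a median log2 ratio of 0.76. Ndufb2 had 110.2, 130.0, 127.5 and 105.9 CPM in footprints against 18.5, 20.7, 21.9 and 21.4 CPM in mRNA, a log2 ratio of 2.53 ± 0.14 (SE), and Ndufb9 was at 2.36. The mRNA RPKM of Ndufb2 was 3.33 over a deposited length of 5628 bases, against list medians of 50.7 and 1569 bases. The part of this in its ratio was not tested. The exceptions were Ndufs5 at −2.06 and Ndufa6 at −0.67. In complexes II to V, 21 of 37 were called higher and 6 lower, with a median of 0.53. The ATP synthase subunits Atp5k and Atp5e were at 2.04 and 1.95, and Cox7c, a cytochrome oxidase subunit, was at −2.27. The mitochondrial ribosome, made of nuclear-encoded proteins, was closer to the median gene, with a median of 0.15. Of 74 genes, 21 were called higher (28.4%, against 28.2% of all genes) and 12 lower (16.2%, against 29.2%).

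Enzymes of glycolysis and the citric acid cycle were higher in 24 of 36 genes and lower in 8, with a median of 0.56. Mdh1, the cytosolic malate dehydrogenase, had 3378, 4207, 4041 and 4000 footprint CPM and 1044, 995.5, 955.3 and 984.3 mRNA CPM, so that each footprint library was above each mRNA library (log2 ratio 1.97 ± 0.10, SE). Aldoa, an aldolase, was at 0.27 and Pgam1 at −1.83. Gapdh had the highest ratio of the list at 6.90, but its mRNA RPKM of 1.01 is far below that of its pathway, it has many pseudogenes, and its mRNA count is uncertain. Among the ion pumps that use much of the ATP of the brain, 8 of 11 were called higher and 0 lower, with a median of 0.71. Atp2b3, a calcium pump of the plasma membrane, was at 1.54, and Atp2b1 at −0.14 was not called. The proteasome, which degrades tagged proteins, had 22 of 35 genes higher and 5 lower (median 0.58, Psmc4 and Psmd6 both at 1.73, Psmc1 at −0.84). Chaperones had 18 of 31 higher and 7 lower (median 0.53). Pdia4 was at 1.96 and Hsp90ab1 at 0.63, while Hspa8 was at −2.64 and Dnaja1 at −1.83. Dnaja1 has a pseudogene of its name in the count table, and Hspa8 has 3 small RNA genes within its span. The vacuolar proton pump had 8 of 18 genes higher and 3 lower, from Atp6v0b at 1.58 to Atp6v1g1 at −3.19.

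**Figure D2:**
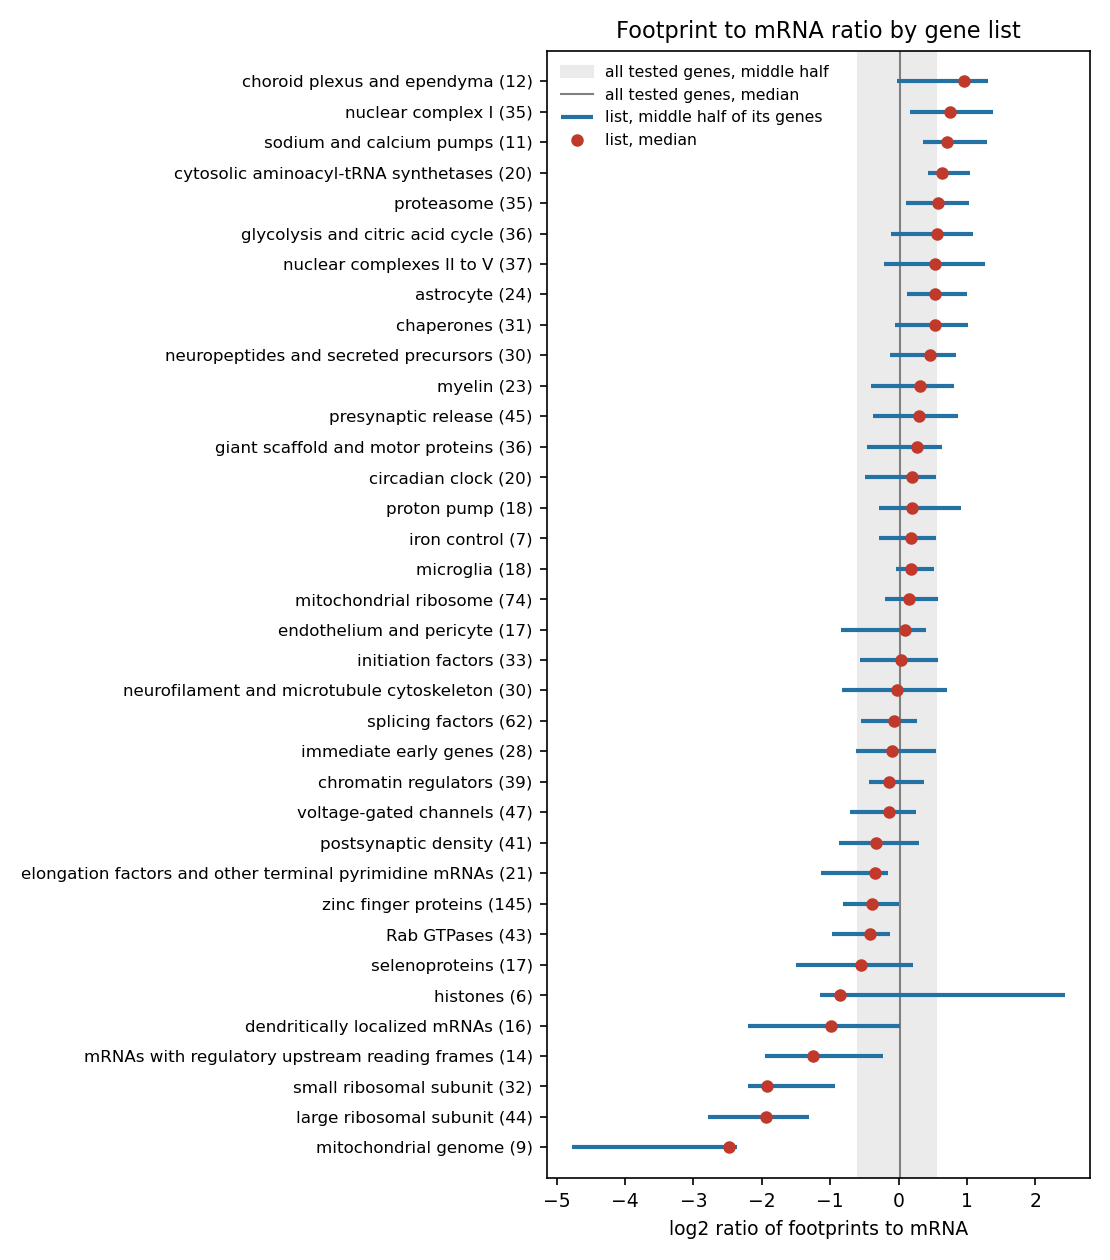
Median log2 ratio of footprints to mRNA (points) and the range from the 25th to the 75th percentile of the list's genes (bars) for 36 gene lists, with the number of genes tested in brackets, against the same range (grey band) and median (line) of all 9473 genes. Of the 36 lists, 6 have a median above the 75th percentile of all genes, 0.55, and 6 have one below the 25th percentile, −0.59.

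At the synapse the sending and the receiving side differed in their medians. Among 45 genes of presynaptic release, the machinery that fuses vesicles and recycles them, 23 were called higher and 12 lower, with a median log2 ratio of 0.29. Pclo, a scaffold of the active zone, was at 1.24 and Sncb, beta-synuclein, at 1.23. Snap25, the membrane partner in the fusion complex, had 3023, 2975, 2478 and 3916 CPM in footprints against 2515, 2333, 2652 and 2617 CPM in mRNA. The groups overlapped, and the log2 ratio of 0.29 ± 0.12 (SE) was only just called (adjusted p = 0.049, edgeR). Vamp2, its vesicle partner, had 380.5, 347.2, 394.3 and 471.9 CPM in footprints against 1176, 1201, 1077 and 1093 CPM in mRNA, a log2 ratio of −1.51 ± 0.11 (SE). The complexins, which clamp the complex, were also lower, with Cplx2 at −2.46 and Cplx1 at −0.90. Proteins of 1 complex therefore did not share a ratio.

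The postsynaptic density is the receptor scaffold opposite the release site. Among 41 of its genes, 12 were called higher (29.3%, against 28.2% of all genes) and 22 lower (53.7%, against 29.2%), with a median of −0.32. The test of the difference between the presynaptic and the postsynaptic list was not run. Ppp1r9b, spinophilin of dendritic spines, had 144.8, 110.7, 128.4 and 96.3 CPM in footprints against 988.1, 1051, 1335 and 1177 CPM in mRNA, a log2 ratio of −3.25 ± 0.15 (SE). Dlgap3, a scaffold protein, was at −2.51 and Camk2n1, an inhibitor of CaM kinase, at −1.75. Nrgn, a calmodulin-binding protein of spines, went the other way at 1.19, with footprint libraries from 1396 to 4007 CPM.

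The mRNAs long known to travel into dendrites were lower than either list, with 10 of 16 called lower and 1 higher, and a median of −0.98. Ddn, dendrin, had 61.5, 94.3, 71.3 and 70.9 footprint CPM and 1261, 1196, 1256 and 1222 mRNA CPM. The libraries within each kind lay close together, and the log2 ratio was −4.03 ± 0.13 (SE), among the 12 lowest of the named genes. Eef1a1 and Ppp1r9b, described above, belong to this list too, and so do Dlgap3 and Nrgn. Arc, an activity-induced dendritic mRNA, had 311.3 to 650.5 footprint CPM and 170.9 to 487.2 mRNA CPM and was not called (log2 ratio 0.69, adjusted p = 0.070). With an RPKM of at least 5 in both tables the list held 11 genes and lay 2.32 below the median gene, and without genes that hold a small RNA gene it lay 1.85 below it.

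Voltage-gated channels, which carry action potentials, and genes named as their subunits were called lower in 21 of 47 genes and higher in 10, with a median of −0.14. Kcna6 was the lowest at −1.87, and Cacng8 at 1.98 and Kcna1 at 1.88 were the highest, so potassium channels stood near both ends. Cacng8, an auxiliary subunit of glutamate receptors, is in the list by its gene name and has a small RNA gene within its span. The part of this in its ratio was not tested. Scn2b, a sodium channel beta subunit, was at −1.04. Rab GTPases, the switches of vesicle traffic, were lower in 21 of 43 genes and higher in 5, with a median of −0.42. Rab11b at −2.80 and Rab5b at −2.59 were the lowest. Rab3a, the Rab of synaptic vesicles, had 1153, 1295, 1195 and 1420 CPM in footprints against 572.1, 526.8, 568.7 and 592.1 CPM in mRNA, a log2 ratio of 1.16 ± 0.10 (SE), and Rab3b was at 1.36.

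Cytoskeletal genes spread in both directions without a shift of the median, which was −0.02, with 11 of 30 genes called higher and 11 lower. Dpysl2, which guides microtubule growth in axons, had 2348, 3480, 3009 and 3008 CPM in footprints against 154.1, 144.7, 138.2 and 186.4 CPM in mRNA, a log2 ratio of 4.25 ± 0.14 (SE). The beta tubulins Tubb2b and Tubb4a were at 2.17 and 0.95. The alpha tubulins lay at the other extreme. Tuba1a had 7.88 to 10.3 footprint CPM and 643.0, 575.4, 497.4 and 578.0 mRNA CPM, a log2 ratio of −5.91 ± 0.17 and the lowest of the named genes, and Tuba1b was at −5.08. The coding sequences of alpha tubulin genes are nearly the same, so short footprints may not be assignable to 1 of them, and both values are uncertain. Giant scaffold and motor proteins had 18 of 36 genes higher and 11 lower (median 0.26). Lrp1, a lipoprotein receptor, was at 2.27, Ubr4 at 1.61 and Kif5a, a kinesin of axonal transport, at −2.13. Kif5a had 830.1, 888.1, 917.0 and 812.5 CPM in footprints against 3580, 3402, 4219 and 3891 CPM in mRNA, while its relative Kif5c was at −0.09 and not called.

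**Figure D3:**
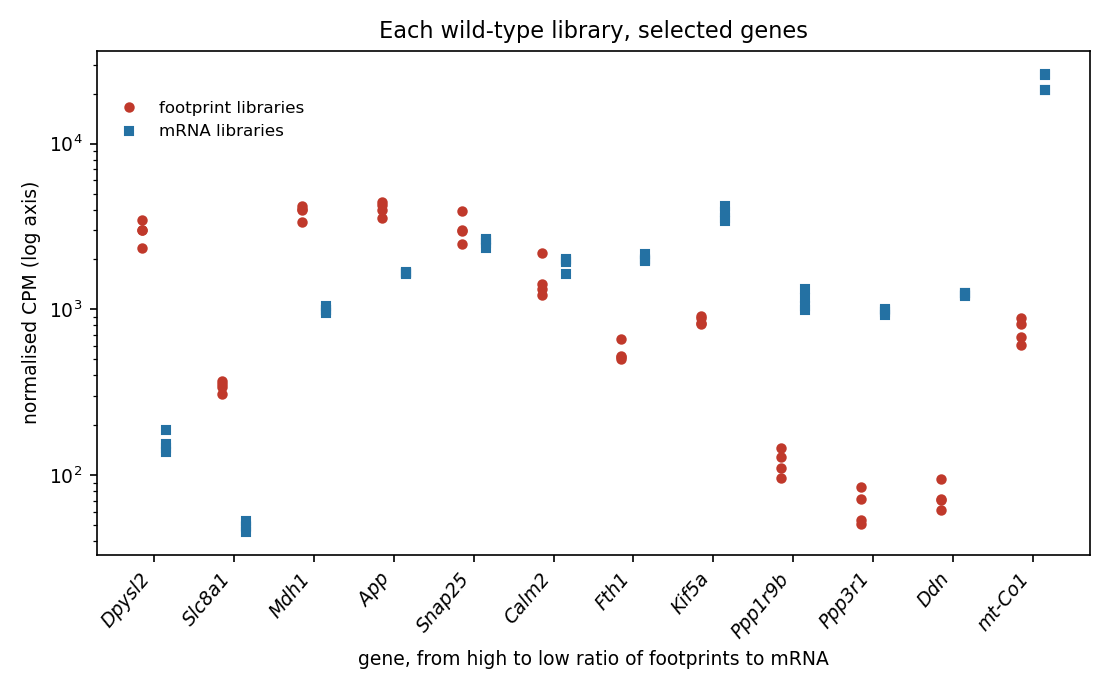
Normalised CPM (log axis) of 12 genes in each of the 4 footprint libraries (circles) and the 4 mRNA libraries (squares) of wild-type brain. The groups overlap for Snap25 and Calm2 and are apart for the others, with footprints above mRNA from Dpysl2 to App and below mRNA from Fth1 to mt-Co1.

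Among genes known for control of their translation, those with upstream reading frames and the selenoproteins had low medians. The iron genes above the limits did not, but others of that list fell below the footprint limit. Upstream reading frames are short coding stretches before the main one that take up scanning ribosomes. The list for them held 14 tested genes, of which 2, the antizymes Oaz1 and Oaz2, are read through a frameshift instead. Of the 14, 9 were called lower and 1 higher, with a median log2 ratio of −1.25. Without the antizymes, the 2 genes of the list with a pseudogene of their name, it was −1.03. Amd1, an enzyme of polyamine synthesis whose upstream frame senses polyamines, had 11.5, 14.3, 19.3 and 19.3 CPM in footprints against 142.9, 151.2, 143.4 and 148.0 CPM in mRNA, a log2 ratio of −3.16 ± 0.16 (SE). Oaz1 and Oaz2 were at −2.45 and −2.07, and Eprs at 0.58 was the gene called higher. Another 5 listed genes, Ddit3, Ppp1r15a, Cebpa, Ibtk and Mief1, reached an mRNA RPKM of 3.19 to 11.6 but stayed under 1 in footprints and were not tested, so the count covers the better occupied part of the list.

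Selenoproteins, which read a UGA stop codon as selenocysteine, had 8 of 17 genes lower and 2 higher, with a median of −0.55. Gpx4, the lipid peroxide reductase, had 25.6, 15.7, 26.9 and 25.4 CPM in footprints against 261.3, 266.6, 255.2 and 267.5 CPM in mRNA, a log2 ratio of −3.51 ± 0.16 (SE). Selenow, at 688.9 mRNA RPKM, was at −2.69, and Selenoo, a pseudokinase family member, at 1.47. Of 11 listed iron genes, 7 were tested, and of these 2 were higher and 2 lower, with a median of 0.19. Fth1, the ferritin heavy chain, whose translation is held back by iron regulatory proteins, had 663.6, 503.7, 522.7 and 513.1 CPM in footprints against 2169, 2012, 1974 and 1970 CPM in mRNA (log2 ratio −1.89 ± 0.11). Ftl1, the ferritin light chain, had an mRNA RPKM of 67.5 and a footprint RPKM of 0.795 and was not tested. Slc40a1, Trf and Cp likewise had 1.36, 4.51 and 1.91 in mRNA but 0.338, 0.908 and 0.866 in footprints. The iron median therefore covers the better occupied part of the list. Aco1, an iron regulatory protein itself, was at 0.93.

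Regulators of the nucleus sat at or below the median gene. Numbered zinc finger genes were lower in 56 of 145 and higher in 13, with a median of −0.39, from Zfp106 at −2.30 to Zfp382 at 1.96. Splicing factors were lower in 22 of 62 genes and higher in 11 (median −0.07). Srrm2, a large spliceosome protein, was at 1.87 and Rbfox2 at −1.57. Chromatin regulators were called in equal numbers, 10 higher and 10 lower of 39 (median −0.13). The acetyltransferase Crebbp was at 1.34 and Chd3, a remodeller, at −1.72. Of 71 histone genes listed by name, mostly replication-dependent ones, whose mRNAs as a rule lack a poly(A) tail, 6 were above the limits. They include H1f0, a linker histone that is made outside replication, at −0.74. Among these, Hist1h4k at 3.70 and Hist1h4h at 3.50 were higher, each with at most 1.98 mRNA CPM and with near-identical copies, and Hist1h4k was at 4.32 without mRNA library 3, and 4 were lower, with Hist3h2ba at −1.42.

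Myelin, astrocyte and choroid plexus genes had medians above that of all genes, while vessel genes were called lower more often than higher. Myelin genes were higher in 11 of 23 and lower in 6, with a median of 0.31. Cldn11, the claudin of myelin, had 563.7, 909.5, 742.5 and 523.6 CPM in footprints against 151.7, 162.5, 192.9 and 172.0 CPM in mRNA, a log2 ratio of 2.02 ± 0.16 (SE). The 2 genes called at least 2-fold lower were Mobp and Mbp, whose mRNAs are known to be carried into the myelin sheath. Mobp had 84.6, 70.7, 84.7 and 147.1 footprint CPM and 1142, 1162, 1104 and 1101 mRNA CPM (log2 ratio −3.54 ± 0.18). Mbp had 429.1 to 554.2 footprint CPM and 3008 to 3539 mRNA CPM (log2 ratio −2.66 ± 0.11).

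Astrocyte genes were higher in 15 of 24 and lower in 3, with a median of 0.53. Mt3, a metallothionein, had 1118, 783.1, 910.3 and 1178 CPM in footprints against 220.2, 222.4, 239.3 and 185.6 CPM in mRNA (log2 ratio 2.20 ± 0.14, SE), and Gfap, the filament protein, was at −0.82. Mt2, at 2.61, rests on 0.140 to 2.25 mRNA CPM, was at 3.21 without mRNA library 3, and had an adjusted p of up to 0.102 with 1 library left out. Microglial genes had 4 of 18 higher (22.2%, against 28.2% of all genes) and 0 lower (against 29.2% of all genes), with a median of 0.18. C1qa, a complement subunit, led with 1.25. Vessel genes had 4 of 17 higher (23.5%, against 28.2% of all genes) and 7 lower (41.2%, against 29.2%), from Pdgfrb at 0.97 to Rgs5 at −1.96. Their median was 0.09 in the fit but lay between −0.41 and −0.01 with each footprint library set against the mRNA mean. The choroid plexus and ependyma list had 6 of 12 higher and 1 lower (median 0.95). These 12 are part of 17 listed genes. Otx2, Ccdc153 and Enkur failed on footprints alone, at 0.479, 0.741 and 0.436 RPKM against 1.15, 2.30 and 1.94 in mRNA. The tested genes had a median mRNA RPKM of 3.26, a low level at which the footprint limit removes low ratios, so the median is partly set by that limit. Ttr, the thyroxine carrier, had 4384, 3568, 2842 and 1710 CPM in footprints against 1013, 1149, 657.0 and 295.9 CPM in mRNA, so that both kinds of library varied over 2-fold, with a log2 ratio of 2.00 ± 0.34.

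Neuropeptide precursors and other secreted proteins of neurons had 14 of 30 genes higher and 2 lower, with a median of 0.46. Sst, somatostatin, had 479.1, 652.3, 763.5 and 612.9 CPM in footprints against 273.4, 290.9, 236.8 and 225.1 CPM in mRNA (log2 ratio 1.29 ± 0.14, SE), and Pcsk1n, a convertase inhibitor, was at −0.58. The hypothalamic peptide genes Pmch, Trh and Oxt varied widely between libraries, and none of the 3 was called. Pmch had 56.9, 19.6, 0.066 and 0.0614 mRNA CPM and 29.5, 0.00, 14.3 and 2.63 footprint CPM. Trh had 2.64 to 28.6 mRNA CPM and Oxt 0.430 to 13.6.

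Genes that respond to activity or to time of day showed no common direction. Of 28 immediate early genes, 5 were called higher and 6 lower (median −0.10). Dusp6, a phosphatase that ends kinase signalling, was at 1.55, Npas4 at 0.89, Egr1 at −0.28 and not called, and Btg2 at −1.81. Of 20 clock genes, 5 were higher and 6 lower (median 0.19). The clock output Dbp had 111.4, 149.3, 81.4 and 127.8 CPM in footprints against 47.3, 59.3, 44.2 and 79.8 CPM in mRNA (log2 ratio 1.03 ± 0.21, SE). Clock itself was at −1.63 and Tef at −1.61.

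The extremes over all genes came from a rule that took the 12 highest and 12 lowest log2 ratios among called genes with no overlap between the groups, a mean of at least 10 footprint and 50 mRNA counts, and no predicted genes. Besides genes already named, the low end held Tspyl4, a nucleosome assembly protein family member, with 15.4, 20.7, 32.7 and 30.6 CPM in footprints against 577.1, 501.5, 536.4 and 525.7 CPM in mRNA (log2 ratio −4.40 ± 0.17, SE). It also held Map3k10, a stress kinase, at −4.33, and Ppp3r1, the regulatory subunit of calcineurin, at −3.89 with 50.3 to 84.9 footprint CPM and 925.2 to 1007 mRNA CPM. The high end held Slc8a1, a sodium and calcium exchanger, with 371.5, 340.1, 354.1 and 307.3 CPM in footprints against 52.6, 48.5, 49.0 and 45.4 CPM in mRNA, a log2 ratio of 2.81 ± 0.12.

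Among the others at the high end, some had uneven footprint libraries and some hold a small RNA gene. Mast1, at 5.27, and Itgb3bp, at 3.81, each have a small RNA gene within their span. Mast1 had 895.4, 1328, 1967 and 2722 footprint CPM, and the part of reads from small RNA in these ratios was not tested. Yipf1, a Golgi protein, was at 4.24, with 302.9 to 1043 footprint CPM. Dnase1 and Amy1, a secreted nuclease and an amylase, had 185.8 and 187.2 footprint CPM in library 2 and 6.41 to 42.9 in the others, and their log2 ratios of 3.36 and 3.57 became 1.46 and 1.92 without it. Tnfaip6 at 3.05, the collagen gene Col1a1 at 2.87 and the transcription factor Cebpd at 2.79 completed the list.

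The ratio was also set against mRNA level and gene length, both of which enter the RPKM limits, and against small RNA genes and pseudogenes, which do not. The limit on footprint RPKM removes low ratios among genes of low mRNA level. Genes with a mean mRNA RPKM of 1 to 3 therefore had a median log2 ratio of 0.63 (968 genes), and those over 100 had −0.17 (341 genes). With the limit on mRNA alone the medians were −0.02 (2739 genes) and −0.06 (345 genes), without the slope seen under both limits. Among the 9473 genes the 25th and 75th percentiles were 0.25 and 1.01 at 1 to 3 RPKM and −1.21 and 0.59 over 100. With the limit on mRNA alone they were −0.686 and 0.575, and −1.155 and 0.702, a smaller widening with level. Of the 9473 genes, 13.8% of those over 100 RPKM were called at least 2-fold higher and 29.3% at least 2-fold lower. At 1 to 3 RPKM, where the footprint limit acts, 23.2% were called at least 2-fold higher. By deposited gene length, the exonic length used for RPKM, genes under 1000 bases had a median of 0.46 (213 genes), those of 1000 to 2000 bases 0.18 (1038 genes) and those of 4000 to 8000 bases −0.06 (3566 genes). Across genes the ratio correlated with length at Spearman's rho of −0.08 and with mRNA RPKM at −0.27. Genes with a small RNA gene in their span had a median of 0.00 (1319 genes) and the others 0.02. The 217 genes with a pseudogene of their name had a median of −0.97, with 66.8% called lower, against 0.03 and 28.3% in the other 9256.

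**Figure D4:**
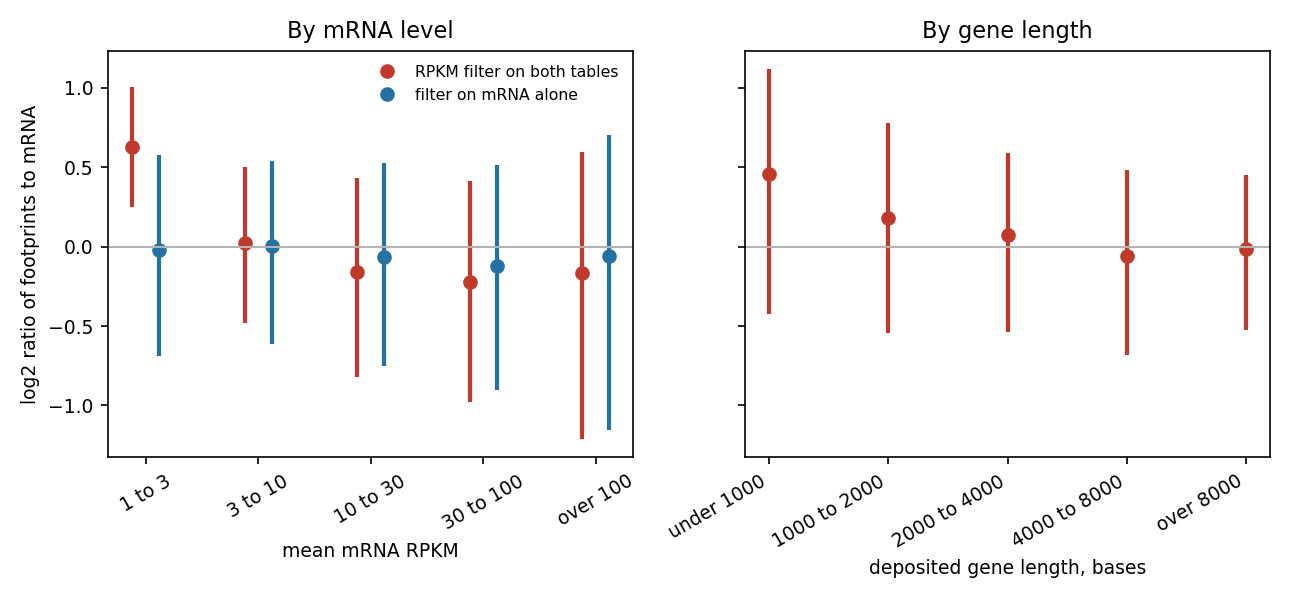
Median log2 ratio of footprints to mRNA (points) and range from the 25th to the 75th percentile of genes (bars) by mean mRNA RPKM (left, under both filters) and by deposited gene length in bases (right). Filtering on mRNA alone brings the median of the 1 to 3 RPKM bin from 0.63 to −0.02, and the median is highest, 0.46, for genes under 1000 bases.

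Most list medians were repeated from library to library. With each footprint library set against the mean of the 4 mRNA libraries, the median log2 difference of the large ribosomal subunit was −1.91, −2.20, −2.21 and −1.93, and that of the small subunit −1.85, −1.82, −2.09 and −1.45. The tRNA synthetases gave 0.69, 0.61, 0.61 and 0.65, complex I gave 0.80, 0.73, 0.78 and 0.64, and presynaptic release gave 0.27, 0.24, 0.27 and 0.34. Each of these lists kept its side of 0 in all 4 footprint libraries. Of the 36 lists, 5 did not: initiation factors, cytoskeleton, microglia, clock genes and immediate early genes, the last with −0.43, 0.06, 0.17 and 0.01. With the footprint mean set against each mRNA library, immediate early genes gave 0.262, 0.178, −0.259 and −0.325. The choroid plexus and ependyma list gave 0.659, 0.585, 0.851 and 1.628.

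**Figure D5:**
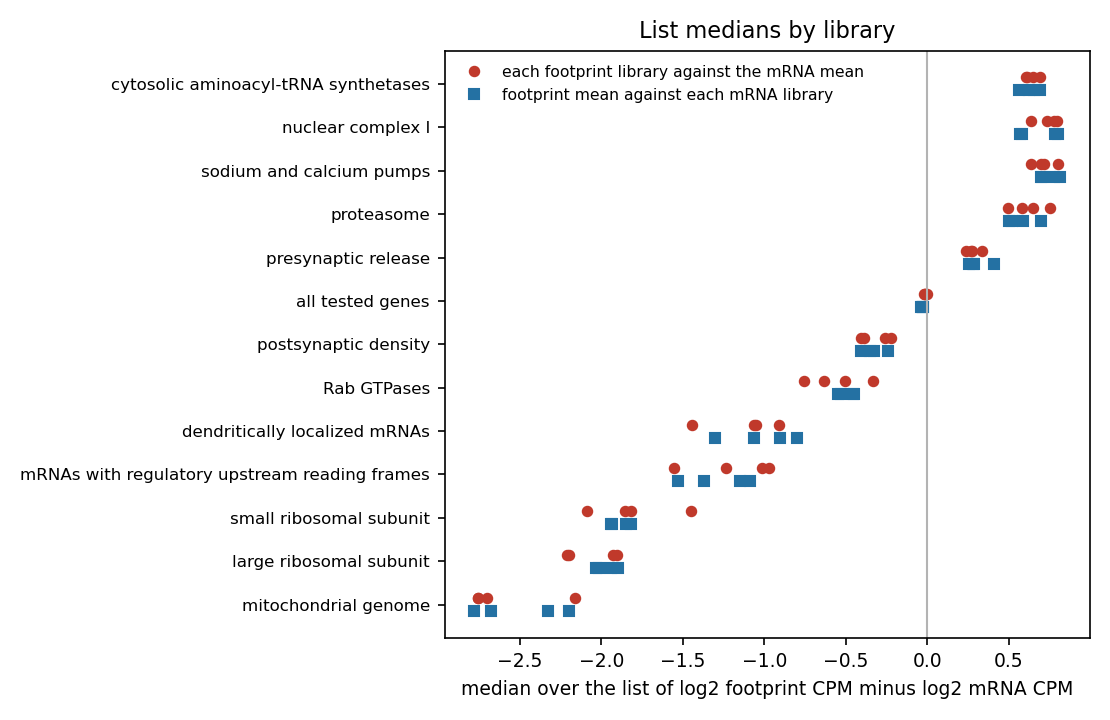
Median over each list's genes of log2 footprint CPM minus log2 mRNA CPM, for each footprint library against the mean of the mRNA libraries (circles) and for the mean of the footprint libraries against each mRNA library (squares), in 12 lists and all tested genes. Each of the 12 lists lies on 1 side of 0 in all 8 values, and the values of a list differ by less than 1 log2 unit.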

How the data were processed

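The deposited count table holds raw counts per Ensembl gene for footprint and mRNA libraries, 1 column per library, per the file headers. The submitters' processing notes name TopHat2 and the mouse build mm10, and the counting program, strand setting, handling of reads with several matches and annotation release are not given in the sources used here. The deposited RPKM tables, made by the authors, served to choose genes and to describe levels. The deposited gene length, per the file headers, is in bases.

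The fit over the 8 wild-type libraries used edgeR 4.0.16 under R 4.3.3 (TMM scaling over the 9473 genes, quasi-likelihood test of footprint against mRNA, Benjamini-Hochberg adjustment over all 9473). The fit was tried on simulated data of this depth, with 50 of 9473 genes changed at each fold and the same variation in both kinds of library. There, 30% of 1.5-fold, 88% of 2-fold, 100% of 3-fold and 96% of 4-fold differences were recovered, and 6.55% of calls were false. In the real data 57.5% of genes were called and the kinds differ in variation, so these rates need not hold for the calls above. Footprint counts had a biological coefficient of variation of 0.206 and mRNA counts 0.133. The genes, the 36 lists and the tests were chosen with earlier results of these data known. Lists are described by counts and medians, with no test of a list. Genes were named by ratio (12 per direction), by level (10 per kind of library) and, in each list, as the 2 highest, the 2 lowest and the 2 with the highest mRNA RPKM, and list genes below the limits were named after their values were seen. Alternatives used DESeq2 1.42.0, limma 3.58.1, other scalings and filters, a replicate block and fewer libraries. Read lengths, reading frame and the coding share of genes were not analysed here. Some genes that this rule takes in are not reported here.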

Additional observations from a re-analysis of the deposited data

Results flagged for a closer look

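In 146 groups of 4 libraries (genes named by ratio or level, and list medians), 5 had a library far from the other 3, measured as its gap to the nearest library over the whole range, and chance flags about 1 in 20 groups. In footprints these were mt-Nd3 (0.83), where library 4 was high, Dnase1 (0.936), where library 2 was high, Tuba1a (0.896), where library 4 was low, and Fth1 (0.881), where library 1 was high. The mitochondrial genome list (0.907) stood apart in footprint library 1, at −2.16 against −2.76 to −2.70 in the others. Among these genes, the log2 ratios of Dnase1 and mt-Nd3 changed by more than 1.5-fold without that library.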

How the results depend on the processing

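With limma on log2(RPKM + 0.1), the median of all genes lay at −1.13 on the authors' own scaling, and 205 genes were called higher, 7504 lower, 52 at least 2-fold higher and 5278 at least 2-fold lower. Of 213 named genes, 32 called ones changed sign against 0 there. The library sizes behind the authors' RPKM were 1.85, 3.37, 2.87 and 2.79 M in footprint libraries 1 to 4. Counts on the tested genes were 0.770, 1.40, 1.18 and 1.14 M there. In mRNA libraries 1 to 4 the sizes were 17.4, 15.8, 16.7 and 17.8 M, against 16.0, 14.6, 15.3 and 16.2 M. An RPKM of 1 therefore stood for a larger share of the tested genes' counts in footprints than in mRNA. The part of this in the shift of the median was not tested. With each library centred on its median, a choice made after seeing the data, 2958 genes were called higher and 2186 lower. Of these, 1163 were at least 2-fold higher and 1073 at least 2-fold lower. Higher calls made up 57.5% of all calls, against 49.1% in edgeR. An RPKM of at least 5 in both tables left 3874 genes, with 1213 higher, 1228 lower, 312 at least 2-fold higher and 492 at least 2-fold lower. Without a filter, 1656 of 17951 genes were at least 2-fold higher and 2344 lower, and with the mRNA filter alone 1947 were at least 2-fold lower. Tested against a null of a 2-fold difference, 346 genes were higher and 674 lower.

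With a replicate block, 2430 genes were higher and 2690 lower, 909 and 1327 at least 2-fold. Footprint and mRNA libraries of the same number deviated together at r = 0.20, −0.13, 0.06 and 0.05 over 4789 genes. Libraries of unlike numbers gave r from −0.25 to 0.205. With few footprint counts per gene, these values cannot tell whether the numbers pair the samples. On the main axis of variation between mRNA libraries (first principal component, 59.4% of variance), libraries 1 and 2 lay at 10.8 and 5.67. Libraries 3 and 4 lay at −8.90 and −7.57. Without mRNA libraries 1 and 2, 2060 were higher and 2321 lower, with 75.3% and 82.0% of the calls kept. Leaving out each library gave 2317 to 2628 genes higher, 2555 to 2716 lower, 889 to 998 at least 2-fold higher and 1297 to 1354 at least 2-fold lower. Without footprint libraries 3 and 4, where microRNA counts outnumber protein-coding counts, 2435 were higher and 2553 lower. This and the removal of genes with a named pseudogene (2569 and 2679) were added after seeing the data. DESeq2's Wald test gave 2939 and 2840.

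Relative to the median gene, 27 of 36 list medians kept their side in all 22 alternatives. The other 9 (initiation factors, channels, cytoskeleton, vessels, immediate early genes, clock, splicing, chromatin, histones) changed side in at least 1. The mitochondrial genome list moved from −2.50 to −4.63 with the mRNA filter alone, which adds its 4 genes at 0, and histones from −0.88 to 3.86 with no filter, which tests 60 genes. Pmch, not called, reached 6.94 without mRNA libraries 1 and 2, which hold its mRNA. List medians by coding share were not run, since no protein or coding lengths were used here. Few footprint counts limit genes such as Rps23.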
